A study of Mus musculus with 3 samples.

Results

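Immediate early genes were followed across the stromal cell classes of the aged mouse thymus. The set held 10 genes, chosen by symbol from the 32293 features of the count tables: Fos, Fosb, Jun, Junb, Jund, Egr1, Atf3, Ier2, Nr4a1 and Zfp36. All 10 were present and all 10 passed the filter on low counts. Levels are given as CPM, the UMIs of a gene per 1000000 UMIs in the summed barcodes of a class, and as the percent of barcodes with at least 1 UMI.

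Immediate early genes are transcribed within minutes of a stimulus, without new protein synthesis, because the factors that bind their promoters are already present. Fos, Fosb, Jun, Junb and Jund encode subunits of the dimeric transcription factor AP-1, and Atf3 encodes a related stress-induced bZIP factor. Egr1 and Nr4a1 encode a zinc-finger factor and an orphan nuclear receptor, Ier2 a small nuclear protein, and Zfp36 the RNA-binding protein tristetraprolin, which promotes decay of AU-rich mRNAs. The same genes are known to be induced in many tissues when cells are released with enzymes at warm temperature.

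The data came from 3 single-cell libraries of thymus cells of untreated C57BL/6 mice aged 20 months, 1 library for each group: Foxn1Lin female, Foxn1Lin male and wild-type male. Values below are listed in that order. Foxn1Lin mice carry a Cre driven by Foxn1, a gene of thymic epithelium, and a tdTomato reporter that this Cre switches on. No group had a gene deleted and none was injured. Thymi were pooled per the labels, cut up, digested with Liberase TM and DNase I, depleted of CD45+ cells on magnetic columns and sorted. Every library went through this dissociation, and no undissociated sample was measured here, so transcription induced by handling and transcription present in the tissue cannot be told apart. Sex and genotype are likewise tied to single libraries. One label field describes the wild-type library as CD45-PECAM1+, whereas its title says CD45-, and its barcodes held every class. The sex field gives male for 2 libraries, whereas the extraction text given for all 3 speaks of female mice, so female and male below follow the titles and the sex field.

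Barcodes were classed by a few genes: thymic epithelial cells (TECs) by 2 or more UMIs of Epcam, endothelial cells (ECs) by 2 or more of Pecam1, fibroblasts (FBs) by 2 or more of Pdgfra, mural cells by 5 or more of Rgs5 and Acta2 together, and mesothelial cells by 2 or more of Upk3b. The tables held 8616, 3583 and 5478 called barcodes with 53366016, 33386621 and 61258534 UMIs. Of all 17677 barcodes, 11335 fell into 1 class, 1213 into several classes and were dropped, 4620 into none and 509 were removed for low quality. The libraries contributed 464, 426 and 867 TECs, 1879, 818 and 857 ECs, 1852, 864 and 1707 FBs, and 426, 449 and 352 mural cells. Mesothelial cells numbered 338, 0 and 36, so that class rests on 2 libraries. The mesothelial barcodes also held markers of other classes. Their 8 FB markers summed to 9535 and 10305 CPM, against 15086 and 15852 CPM in FBs, and their 8 TEC markers to 2161 and 1083 CPM, against 8453 and 7107 CPM in TECs, beside 4766 and 4607 CPM for the 6 mesothelial markers. The part of these markers in the mesothelial contrasts was not tested. Markers not used in the gates were highest in their own class in every library, except for Krt19 among the 7 TEC markers in the Foxn1Lin female and wild-type libraries. Between pairs of libraries 8, 14 and 3 called barcodes had the same sequence.

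Depth differed between classes and free RNA was plentiful. The median UMI count per barcode was 10965, 12429 and 16229 in TECs, and 4052, 5473 and 5974 in mural cells. UMIs outside called barcodes made up 26.5%, 12.9% and 9.46% of the libraries. Droplets without a called cell held all 10 genes, and the level of a gene in a class was 0.321 to 4.80 times that in the empty droplets of the same library. They held Fos at 1104, 1791 and 1935 CPM and Zfp36 at 323, 1144 and 1539 CPM. This multiple is given below beside some of the levels.

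Promoters are shown for Fos, the founding member of the family, and for Nr4a1, the gene that differed most between classes. Of the 10 genes, 8 had a promoter in the RefSeq table (build GRCm38.p6), excluding Egr1 and Ier2, and the 250 bases before the annotated start were searched. Capitals mark CRE half-sites, the letters TGACG or their reverse complement CGTCA, to which CREB and ATF proteins are known to bind, and in Fos also a TATA box (TATAA).
Fos, chr12:85473640-85473889, plus strand: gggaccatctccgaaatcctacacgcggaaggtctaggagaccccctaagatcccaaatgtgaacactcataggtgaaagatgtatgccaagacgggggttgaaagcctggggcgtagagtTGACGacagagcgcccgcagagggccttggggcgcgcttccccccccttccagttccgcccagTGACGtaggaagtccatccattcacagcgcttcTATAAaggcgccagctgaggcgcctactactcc
Nr4a1, chr15:101266596-101266845, plus strand: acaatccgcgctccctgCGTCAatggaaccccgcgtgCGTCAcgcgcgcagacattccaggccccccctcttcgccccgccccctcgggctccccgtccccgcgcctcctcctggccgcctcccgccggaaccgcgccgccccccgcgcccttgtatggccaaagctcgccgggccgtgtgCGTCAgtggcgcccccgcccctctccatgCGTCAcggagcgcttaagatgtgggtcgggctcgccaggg

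Nr4a1 held 4 half-sites, at -233, -213, -69 and -40 from the start, and Fos held 2, at -129 and -66. The Nr4a1 start used here lies within the gene as GENCODE vM21 places it (chr15:101254269-101274795, plus strand). It is thus not the outermost start, whereas the Fos window ends just before the Fos gene (chr12:85473890-85477273). Half-sites on either strand were found in 5 of the 8 promoters, against 17.8% of the 32851 promoters in the table. A CArG box, the site of serum response factor, was found in 1 of the 8, at -58 of Zfp36, against 1.47% of all promoters. The AP-1 site TGAGTCA was found in 0 of the 8, against 4.46%, and the full CRE in 0 of the 8, against 1.55%. These counts describe letters in a short window and say nothing of binding.

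All 10 genes differed between the 5 classes. After scaling, mural cells were most often among the highest classes and TECs among the lowest, and no single order held for every gene. In the test over all classes, with counts summed per library and class and the library as a block, edgeR's quasi-likelihood test called 10 of 10 members, against 77.8% of the 17595 genes tested. The adjusted p ran from 2.2e-06 for Nr4a1 to 0.0074 for Jund. Since most genes pass, the pairwise contrasts carry the pattern, and these are differences on the log2 scale after TMM scaling, each with its SE. A call is an adjusted p under 0.05. Together the 10 genes took 0.884%, 1.30% and 1.15% of all UMIs in TECs and 1.58%, 2.27% and 2.28% in mural cells.

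**Figure D1:**
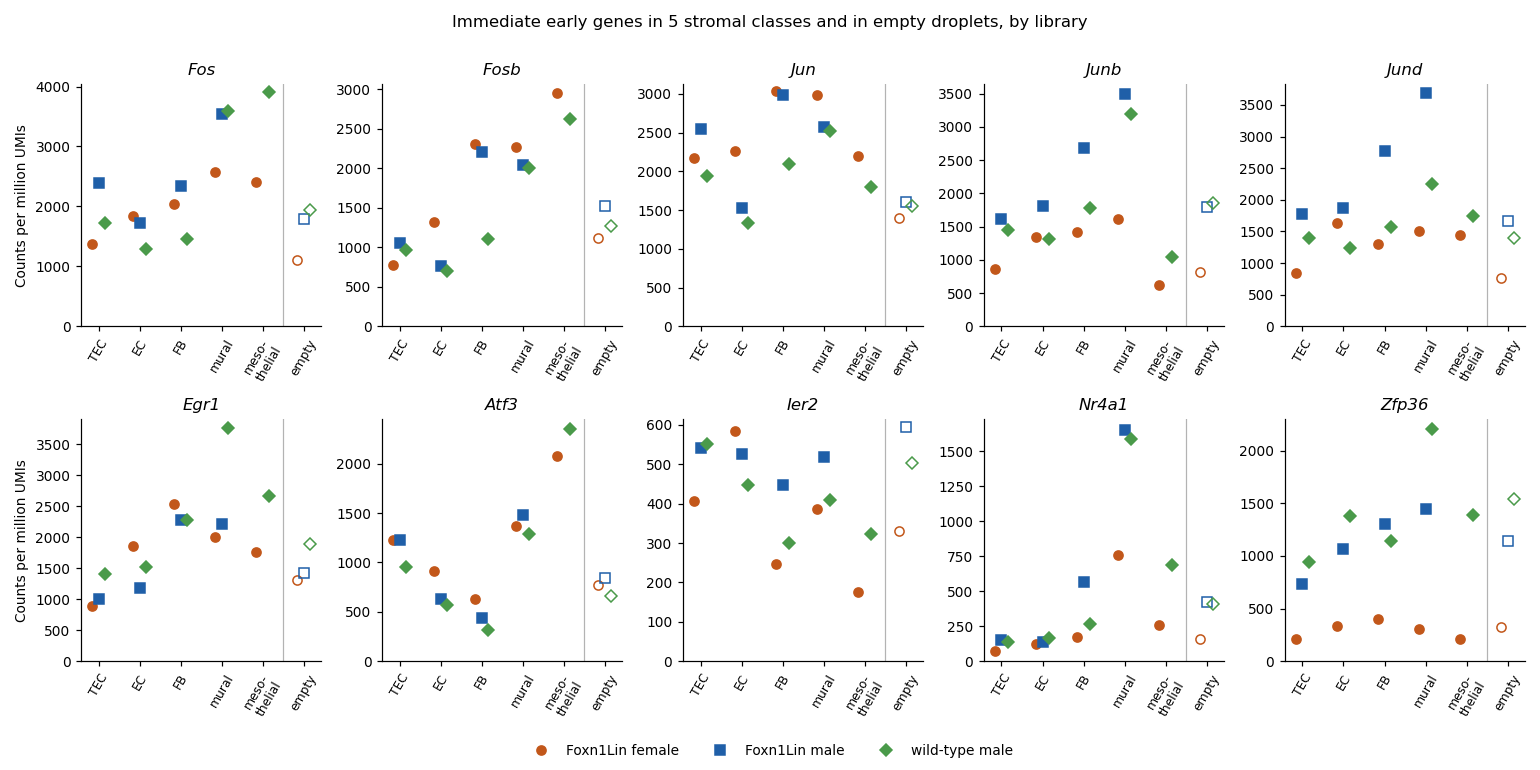
Level of each gene in CPM (linear axis from 0) for 5 classes of barcodes, filled symbols, and for empty droplets, open symbols. Each symbol is 1 library, without an error bar because each group is a single library. The 3 mural values of Nr4a1 lie between 756 and 1654 CPM, above all values of the other classes.

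Nr4a1 was the gene most restricted in level. It measured 756, 1654 and 1591 CPM in mural cells, 71.0, 153 and 141 CPM in TECs, and 120, 136 and 167 CPM in ECs. FBs held 176, 565 and 263 CPM and mesothelial cells 262 and 685 CPM. The mural values did not overlap those of any other class. Mural cells exceeded TECs by a log2 difference given as TEC minus mural of -3.77 ± 0.29 (SE; edgeR's quasi-likelihood test, adjusted p = 2.87e-06), and ECs minus mural cells came to -3.08 ± 0.28 (adjusted p = 1.18e-05). The difference to FBs was -2.02 ± 0.27 (FB minus mural, adjusted p = 0.000253) and that to mesothelial cells 1.45 ± 0.31 (mural minus mesothelial, adjusted p = 0.00521).

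Against empty droplets, Nr4a1 was 4.80, 3.90 and 3.87 times higher in mural cells, but only 0.450, 0.361 and 0.342 of that level in TECs and 0.761, 0.321 and 0.405 in ECs. A value below 1 means that the gene took a smaller share of UMIs than in empty droplets. The 9 EC markers summed to 95.9, 39.5 and 41.5 CPM in TECs, beside 1963, 1500 and 1062 CPM in empty droplets. How much of the Nr4a1 level in TECs and ECs was free RNA was not tested. After each barcode was thinned to 2000 UMIs, 60.7%, 83.0% and 77.0% of mural cells had a UMI of Nr4a1, against 12.9%, 13.2% and 13.5% of TECs. Exact binomial intervals (95%) for these mural shares were 55.7% to 65.6%, 79.2% to 86.4% and 72.1% to 81.3%, for counting error only. Without thinning the shares were 69.5%, 91.1% and 85.8% of mural cells and 33.8%, 36.9% and 40.0% of TECs. Nr4a1 was also the only member with a higher mean UMI count per barcode in mural cells than in TECs in every library, at 3.42, 10.1 and 10.9 against 0.996, 2.31 and 2.95. GENCODE vM21 places the gene (ENSMUSG00000023034) at chr15:101254269-101274795 of GRCm38, plus strand.

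Fos measured 2569, 3535 and 3595 CPM in mural cells and 2400 and 3902 CPM in mesothelial cells, against 1373, 2387 and 1719 CPM in TECs. ECs held 1838, 1727 and 1296 CPM and FBs 2034, 2340 and 1461 CPM. The mural values lay above all values of TECs, ECs and FBs, whereas these 3 classes overlapped one another. Fos was lower in TECs (-1.16 ± 0.23, adjusted p = 0.00164), ECs (-0.93 ± 0.23, 0.00761) and FBs (-0.72 ± 0.23, 0.035) than in mural cells by edgeR's quasi-likelihood test. These calls against TECs, ECs and FBs held under 15, 13 and 11 of the 15 alternative settings. No contrast of Fos among TECs, ECs and FBs was called.

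Fosb, a close relative of Fos, divided the classes differently. It measured 775, 1057 and 960 CPM in TECs and 1320, 768 and 696 CPM in ECs, but 2304, 2208 and 1109 CPM in FBs. Mural cells held 2274, 2038 and 2001 CPM and mesothelial cells 2955 and 2624 CPM. No contrast of Fosb among FBs, mural cells and mesothelial cells was called. TECs were below each of them, by -1.28 ± 0.26, -1.47 ± 0.26 and -1.81 ± 0.29 (edgeR's quasi-likelihood test, adjusted p = 0.00165, 0.00085 and 0.00077), and ECs were below each of them too.

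**Figure D2:**
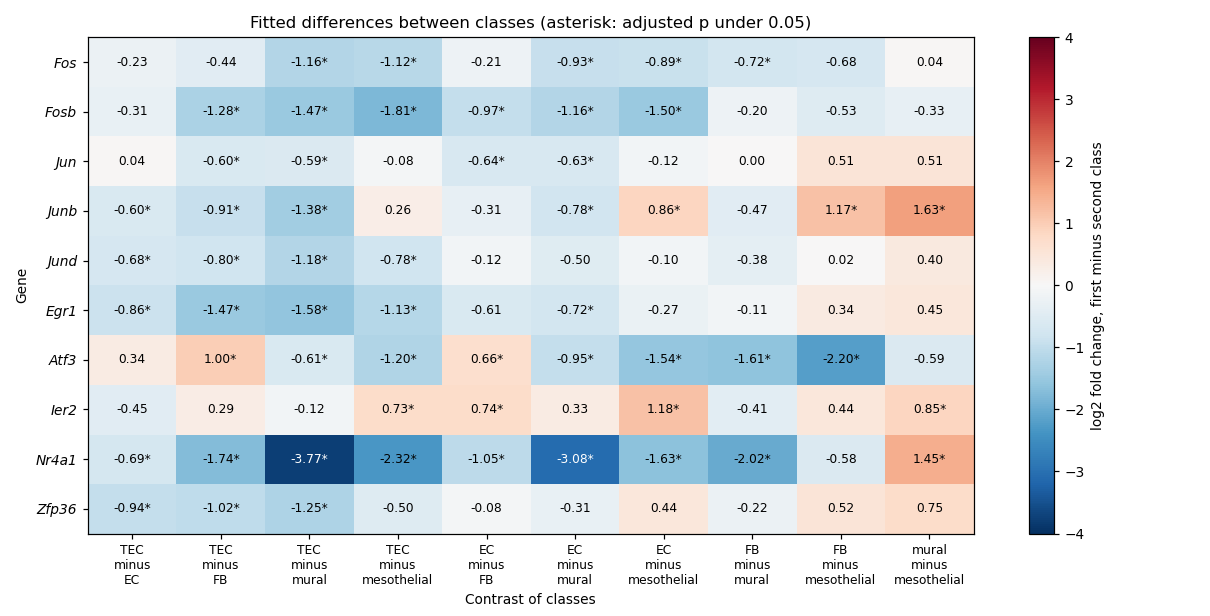
Fitted log2 difference of each gene (rows) for the 10 pairs of classes (columns), first class minus second, from 1 edgeR fit to 14 sums of library and class. Blue cells are lower in the first class, and an asterisk marks an adjusted p under 0.05. Without TMM scaling the sign of 7 cells without an asterisk turned, Fos and Fosb in TEC minus EC, Ier2 in TEC minus mural, Jun in TEC minus mesothelial and FB minus mural, Jund in FB minus mesothelial and Fos in mural minus mesothelial. The darkest cells are Nr4a1 in TECs and ECs against mural cells, at -3.77 and -3.08.

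The Jun proteins had other low points. Jun measured 3043, 2985 and 2092 CPM in FBs and 2990, 2574 and 2522 CPM in mural cells, against 2177, 2547 and 1946 CPM in TECs and 2263, 1522 and 1330 CPM in ECs. Its 4 called contrasts put TECs and ECs below FBs and mural cells, by between -0.59 and -0.64. Each of these calls was lost under 3 or 4 of the 15 alternatives, among them the fit without the library block and 2 of the 3 that left out 1 library. TEC minus mural was -0.015 on the log2 scale of plain CPM in the Foxn1Lin male library. Junb measured 1606, 3501 and 3197 CPM in mural cells and 614 and 1034 CPM in mesothelial cells, its lowest class. The difference between these classes was 1.63 ± 0.23 (mural minus mesothelial; edgeR's quasi-likelihood test, adjusted p = 0.000375). Mesothelial cells thus held much Fos and Fosb beside little Junb. Jund, the member known for steady expression, measured 1502, 3685 and 2254 CPM in mural cells and 838, 1774 and 1394 CPM in TECs, with a difference of -1.18 ± 0.22 (TEC minus mural, adjusted p = 0.00133).

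Egr1 had its lowest level in TECs in each library. TECs held 884, 1003 and 1407 CPM, FBs 2538, 2275 and 2282 CPM, and mural cells 2010, 2214 and 3764 CPM. The TEC values overlapped neither. TEC minus FB was -1.47 ± 0.23 and TEC minus mural -1.58 ± 0.23 (edgeR's quasi-likelihood test, adjusted p = 0.000319 and 0.00026). Relative to empty droplets, Egr1 was at 0.672, 0.705 and 0.745 in TECs and at 1.93, 1.60 and 1.21 in FBs.

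Atf3 and Ier2 ran against this order. Atf3 was lowest in FBs, at 626, 440 and 321 CPM, and reached 1232, 1228 and 959 CPM in TECs, 1371, 1486 and 1291 CPM in mural cells and 2078 and 2353 CPM in mesothelial cells. FBs lay below every other class, by a log2 difference from 0.66 ± 0.19 for EC minus FB (edgeR's quasi-likelihood test, adjusted p = 0.0186) to -2.20 ± 0.22 for FB minus mesothelial (adjusted p = 7.04e-05). The multiples of the empty-droplet level were 0.813, 0.524 and 0.489 in FBs and 2.70 and 3.58 in mesothelial cells.

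Ier2 measured 585, 526 and 447 CPM in ECs and 408, 540 and 552 CPM in TECs. FBs held 247, 447 and 301 CPM and mesothelial cells 175 and 324 CPM. EC minus FB was 0.74 ± 0.20 and EC minus mesothelial 1.18 ± 0.24 (edgeR's quasi-likelihood test, adjusted p = 0.0113 and 0.00265). Over the 14 sums, Ier2 and Atf3 followed the mean of the other members least, with Pearson's r of -0.20 and 0.22, whereas Nr4a1 (0.90), Jund (0.88), Egr1 (0.84) and Fos (0.81) followed it most. These r are descriptions over sums that share libraries.

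Zfp36 was lower in TECs than in ECs, FBs and mural cells, within a spread between libraries that was the widest of any member. TECs held 215, 733 and 946 CPM, ECs 330, 1069 and 1378 CPM, FBs 397, 1303 and 1142 CPM and mural cells 307, 1447 and 2201 CPM. The classes overlapped across libraries but not within a library, where TECs were below these 3 classes each time. With the library as a block, TEC minus EC was -0.94 ± 0.22, TEC minus FB -1.02 ± 0.22 and TEC minus mural -1.25 ± 0.22 (edgeR's quasi-likelihood test, adjusted p = 0.00366, 0.00232 and 0.000886).

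Taken by pair of classes, TECs stood below the other classes in most called contrasts. Against ECs, 5 members were higher in ECs (24.9% of all genes tested) and 0 in TECs (31.4%), where an unadjusted p under 0.05 gave 6 and 0 and DESeq2 4 and 0. Against FBs, 7 were higher in FBs (24.9%) and 1, Atf3, in TECs (30.1%). Against mural cells, 9 were higher in mural cells (22.5%) and 0 in TECs (26.1%), and DESeq2 and unadjusted p-values each gave 9 and 0 as well. Against mesothelial cells, 6 were higher in mesothelial cells (16.5%) and 1, Ier2, in TECs (21.3%). Leaving out the Foxn1Lin female, the Foxn1Lin male or the wild-type library left 5, 5 and 4 members called there, all higher in mesothelial cells, so that the call of Ier2 was lost each time. The median log2 difference of the members was -0.53, -0.86, -1.21 and -0.95 in these 4 contrasts, beside 0.12, 0.09, 0.13 and 0.19 over all genes.

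The TEC contrasts depended on the scaling. TMM gave TEC sums factors of 1.15 to 1.23, and without it the median of all genes rose from 0.12 to 0.49 in TEC minus EC, a shift that lifts every gene of TECs. Without that factor 2 members, Jun and Atf3, were higher in TECs than in ECs and only Zfp36 was lower, and Fos and Fosb, not called in either fit, turned from below 0 to above it. Against FBs the split then was 5 lower and 2 higher in TECs, and against mural cells 7 and 0. On plain CPM, 9 members were higher in mural cells than TECs in every library, where 30.4% of genes with a mean of 20 CPM or more were, 7 were higher in FBs (32.6%) and 2 in ECs (33.1%). Counted as mean UMIs per barcode, a scale added after the data were seen, these numbers were 1 (8.35% of genes), 0 (10.6%) and 0 (9.82%), beside TEC medians of UMIs that were higher than those of every other class of the same library. Fos, for instance, averaged 19.3, 36.1 and 36.1 UMIs per TEC and 11.6, 21.6 and 24.6 per mural cell. Between TECs and ECs, without the Foxn1Lin male library 1 member was called, higher in ECs. Without the Foxn1Lin female library 1 was higher in ECs and 1, Atf3, in TECs, and with looser gates 4 were higher in ECs and 1, again Atf3, in TECs, so that the one-sided split was lost in both.

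ECs were lower than mural cells for 7 members (18.8%) and higher for 0 (18.4%), with 8 and 0 by unadjusted p and 7 and 0 by DESeq2. Without the Foxn1Lin male library this count fell to 1, Nr4a1, and without the wild-type library to 2. FBs were lower than mural cells for 3 members, Fos, Atf3 and Nr4a1 (14.3%), and higher for 0 (14.1%), with 4 and 0 by unadjusted p and by DESeq2. Without the Foxn1Lin female library 5 were lower. Leaving out the Foxn1Lin male library, the wild-type library or the library block left 2 lower each time, Atf3 and Nr4a1. The share for FBs against mural cells was 3 of 10, a small count not far above the 14.3% of all genes. The members' median was -0.39 beside 0.01.

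Between ECs and FBs, 3 members were higher in FBs (19.9%), Fosb, Jun and Nr4a1, and 2 in ECs (19.7%), Atf3 and Ier2. That total of 5 became 1 without the Foxn1Lin male library and 2 without the wild-type library. Between ECs and mesothelial cells, 4 were higher in mesothelial cells (16.4%) and 2, Junb and Ier2, in ECs (18.2%), a share close to the background. The split in ECs and mesothelial cells was 0 and 4 without the Foxn1Lin female library, and 1 and 3 without either of the others. Between FBs and mesothelial cells, Junb was higher in FBs (11.7%) and Atf3 in mesothelial cells (9.77%), close to the background, and without the wild-type library 1 was called. Between mural and mesothelial cells, Junb, Ier2 and Nr4a1 were higher in mural cells (14.3%) and 0 in mesothelial cells (12.5%), with 5 and 1 by unadjusted p and 5 and 0 by DESeq2. Without scaling Atf3 was called higher in mesothelial cells, a split of 2 and 1. Without the Foxn1Lin female or the wild-type library 1 was called. The mesothelial sum of the wild-type library held 36 barcodes.

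Most barcodes carried several of these transcripts at once. At 2000 UMIs per barcode, 5 or more of the 10 genes were detected in 89.8%, 95.9% and 94.5% of mural cells and 88.8%, 92.0% and 79.8% of FBs. The same held for 87.7%, 82.7% and 78.7% of ECs and for 86.5% and 91.7% of mesothelial cells. TECs were lowest in each library, at 64.1%, 70.4% and 64.7%. Barcodes with 8 or more made up 59.9%, 78.0% and 78.1% of mural cells and 27.3%, 40.1% and 36.7% of TECs. Since droplets without cells hold these genes as well, a single UMI does not show transcription in that cell.

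**Figure D3:**
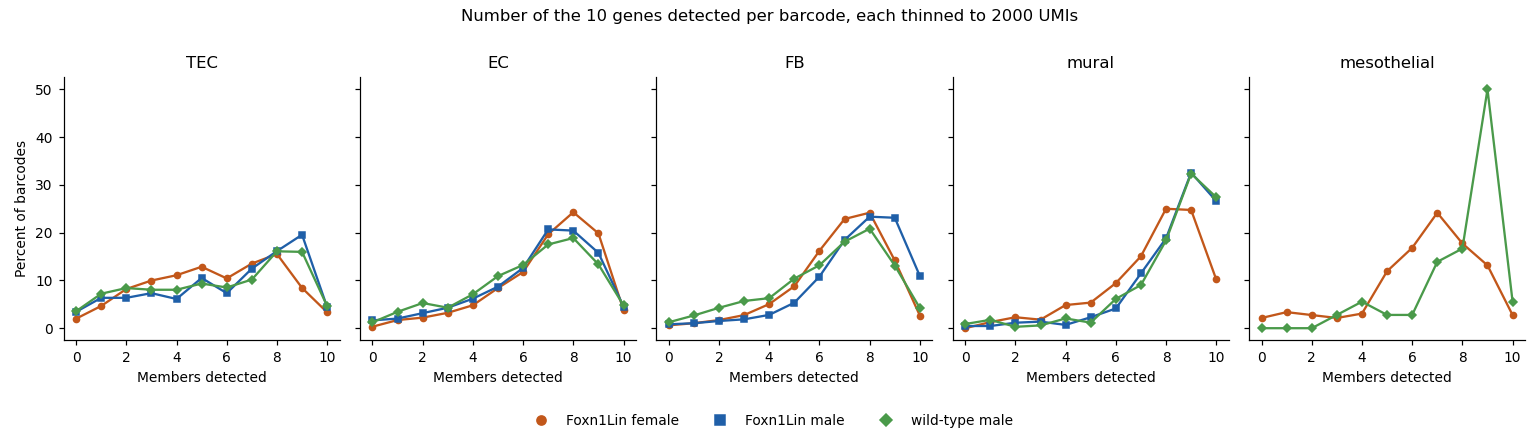
Percent of barcodes (vertical axis) in which a given number of the 10 genes was detected (horizontal axis), by class and library, after thinning each barcode to 2000 UMIs. Mural barcodes of the males peak at 9 genes, while TEC barcodes are spread over the whole range.

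Within a class, the genes varied together from barcode to barcode. The median correlation over the 45 pairs of members was 0.36, 0.46 and 0.45 in TECs and 0.30, 0.30 and 0.34 in mural cells, where barcodes share depth and library. Fos and Jun, the classic AP-1 partners, gave 0.59, 0.71 and 0.67 in TECs. TECs thus had the lowest share of barcodes with many members and the highest median correlation in each library.

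Part of the spread among TECs followed Aire, the regulator of tissue-restricted antigens in medullary TECs. Among 8 marker gates looked at after the data were seen, and given here without a test, barcodes with 2 or more UMIs of Aire stood apart most. They numbered 120, 69 and 164. The 10 genes summed to 4098, 3976 and 3378 CPM in them, against 10665, 15676 and 13656 CPM in the remaining TECs. Every member was lower in the Aire barcodes of every library, as were 38.5% of genes with a mean of 20 CPM or more. Atf3 was at 0.240, 0.115 and 0.127 of the level in other TECs, Fos at 0.294, 0.124 and 0.148, and Junb, the least reduced, at 0.662, 0.445 and 0.407. The Aire barcodes were deeper, with medians of 13336, 21202 and 21601 UMIs against 9531, 11695 and 14462, and a gate on a UMI count favours deep barcodes.

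Other TEC gates gave smaller or mixed differences. Proliferating barcodes, with 2 or more UMIs of Mki67, numbered 26, 11 and 44 and held 5550, 4038 and 6069 CPM against 9141, 13507 and 12043 CPM. Barcodes with Prss16, a cortical protease, were higher than the rest in each library, by 1.40, 1.28 and 1.29 times. The gate on Ccl21a, a medullary chemokine, went both ways, with 1.73, 1.36 and 0.752 times. For Atf3, TECs without Aire held 1562, 1534 and 1177 CPM, beside 1371, 1486 and 1291 CPM in mural cells. For Fos they held 1709, 2975 and 2098 CPM, which overlapped FBs and stayed below mural cells of the same library. For Nr4a1 they held 83.0, 184 and 169 CPM, far below mural cells.

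**Figure D4:**
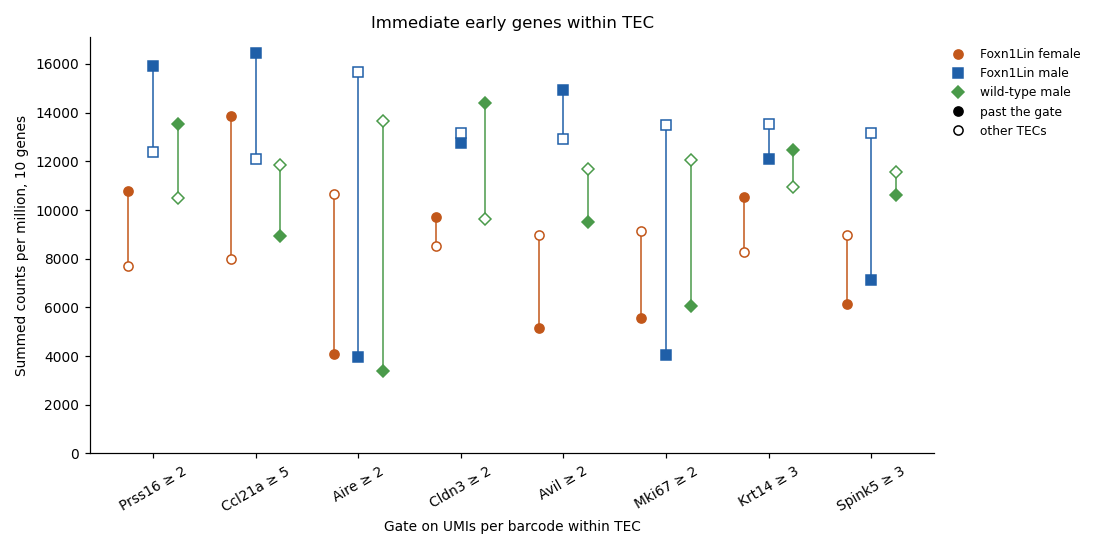
Summed level of the 10 genes in CPM (linear axis from 0) in TECs past a marker gate, filled symbols, and in the other TECs, open symbols, for 8 gates and 3 libraries. The Aire gate shows the widest gap, with 3378 to 4098 CPM past the gate and 10665 to 15676 CPM in the rest.

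Libraries differed most for Zfp36. As each group is 1 library, no test was made, and a gene counts as past 2-fold when the ratio of CPM exceeds it, among genes with a mean of 20 CPM or more and with 1 CPM added to both. Zfp36 was lower in the Foxn1Lin female than in the Foxn1Lin male library in each of the 4 classes compared, by a log2 ratio of -1.77 in TECs, -1.70 in ECs, -1.72 in FBs and -2.24 in mural cells. In mural cells 307 CPM (exact Poisson interval 283 to 333) stood against 1447 CPM (1403 to 1493), intervals that cover counting error only. Empty droplets of the libraries showed the same order, with 323 against 1144 CPM. Jund (-1.08, -1.10 and -1.29) and Nr4a1 (-1.11, -1.68 and -1.13) were past 2-fold in TECs, FBs and mural cells, and Junb (-1.12) in mural cells.

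In all, 3 members were past 2-fold lower in the female library in TECs (2.80% of genes), 1 in ECs (3.40%), 3 in FBs (4.83%) and 4 in mural cells (3.33%). None was past 2-fold higher in the female library in TECs, ECs, FBs or mural cells, where 3.91%, 3.71%, 4.72% and 4.56% of all genes were. Members went both ways below that limit: Fosb, Jun, Egr1 and Atf3 were higher in the female library in ECs, by 0.78, 0.57, 0.66 and 0.54. Sex and library cannot be told apart here.

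The males of both genotypes were closer. Only Nr4a1 in FBs was past 2-fold, higher in the Foxn1Lin male library by 1.10, where 1.25% of genes were, and Fosb in FBs reached 0.99. No other member was past 2-fold higher in the Foxn1Lin male library in TECs (0.92% of genes), ECs (1.11%) or mural cells (1.54%), and none was past it in the other direction in TECs (2.77%), ECs (1.62%), FBs (2.33%) or mural cells (3.54%).

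**Figure D5:**
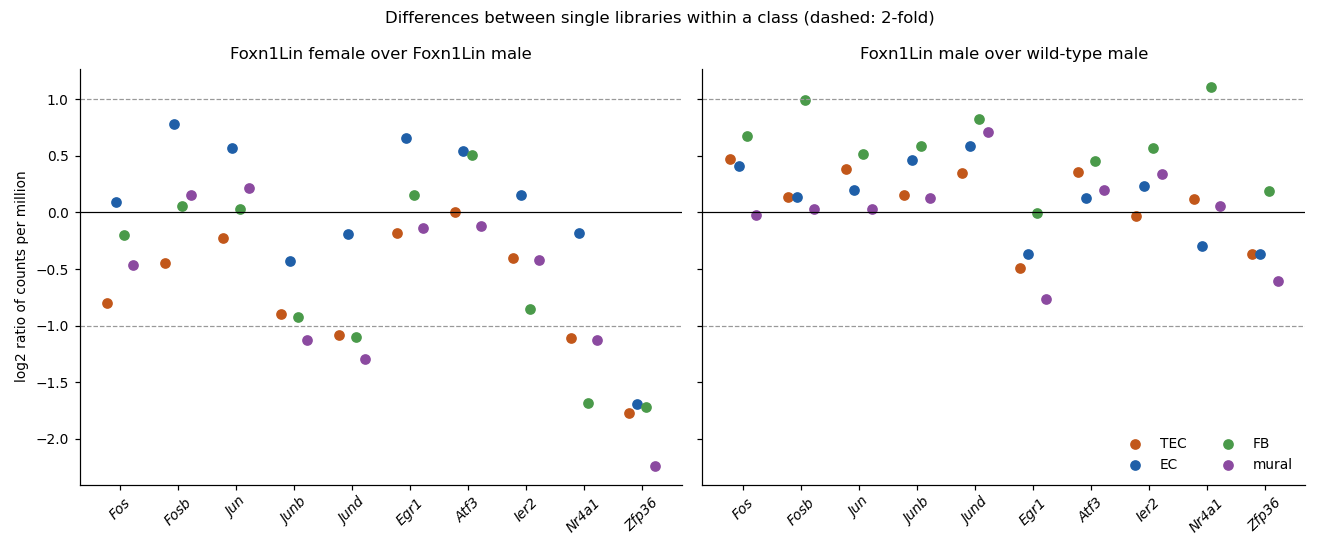
Log2 ratio of CPM between single libraries for each gene, with 1 point per class (TEC, EC, FB, mural). Left, Foxn1Lin female over Foxn1Lin male, where all 4 points of Zfp36 lie between -1.70 and -2.24. Right, Foxn1Lin male over wild-type male, where only Nr4a1 in FBs lies past the dashed 2-fold line.

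Genes around the members in the same response gave a similar order in part. Among 11 further AP-1 partners, 6 were lower in TECs than in FBs (24.9% of all genes) and 1 higher (30.1%), 6 lower (24.9%) and 1 higher (31.4%) than in ECs, and 5 lower (22.5%) and 1 higher (26.1%) than in mural cells. Fosl2, a Fos relative, measured 48.9, 52.5 and 60.9 CPM in TECs and 411, 502 and 552 CPM in mural cells (TEC minus mural -3.48 ± 0.23, edgeR's quasi-likelihood test, adjusted p = 1.3e-06). Mafk, a small Maf protein, was likewise lowest in TECs, at 33.8, 40.2 and 36.2 CPM against 130, 177 and 139 CPM in mural cells. Fosl1 instead peaked in mesothelial cells, at 104 and 81.4 CPM.

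Of 14 other immediate early transcription factors, 12 were lower in TECs than in FBs (24.9% of all genes), and 12 were lower (22.5%) and 1 higher (26.1%) than in mural cells. Nr4a2, the paralogue of Nr4a1, measured 370, 409 and 239 CPM in mural cells and 28.1, 34.8 and 44.1 CPM in TECs. In FBs it was at 32.9, 62.7 and 38.6 CPM, so that Nr4a1 and Nr4a2 shared the peak in mural cells. Cebpb, a bZIP factor of acute responses, reached 364, 1846 and 853 CPM in mural cells and 32.0, 98.1 and 47.9 CPM in ECs. Klf10 was highest in mesothelial cells and ECs and lowest in mural cells (40.0, 50.7 and 22.4 CPM), and Egr3, a relative of Egr1, was highest in ECs and FBs.

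Of 23 feedback and mRNA decay genes, 16 were lower in TECs than in mural cells (22.5% of all genes) and 3 higher (26.1%), and 10 were lower in FBs than in mural cells (14.3%) and 3 higher (14.1%). Gadd45g, a stress sensor, measured 442, 910 and 573 CPM in mural cells and 17.3 and 13.2 CPM in mesothelial cells. Spry4, an inhibitor of growth factor signalling, was at 1.38, 1.24 and 2.36 CPM in TECs and 74.8, 81.3 and 83.9 CPM in mural cells. Ier3 was highest in ECs, at 670, 1163 and 765 CPM, and so was Dusp2, a MAP kinase phosphatase, at 21.1, 61.1 and 24.4 CPM.

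Of 15 upstream kinases and factors, 8 were lower in TECs than in ECs (24.9% of all genes), 8 were lower (24.9%) and 1 higher (30.1%) than in FBs, and 5 were lower than in mural cells (22.5%). In ECs 6 were higher (18.4%) and 3 lower (18.8%) than in mural cells. Elk3 and Elk4, partners of serum response factor, and Mrtfb, its coactivator, were highest in ECs, Elk3 at 351, 266 and 387 CPM against 65.9, 31.3 and 45.3 CPM in mural cells. Crem, a relative of CREB with an inducible repressor form, peaked in mural cells, at 196, 141 and 158 CPM, as Nr4a1 did.

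Heat shock genes are also known to respond to dissociation. Of 12, 2 were higher (26.1% of all genes) and 2 lower (22.5%) in TECs than in mural cells, 1 was higher (30.1%) and 5 lower (24.9%) in TECs than in FBs, and 8 were higher in FBs than in ECs (19.9%) and 1 lower (19.7%). Their median log2 difference was 0.02 in TEC minus mural, where called genes went both ways, beside -1.21 for the 10 members. The medians were both below 0 in TEC minus FB (-0.17 beside -0.86), EC minus FB (-0.85 beside -0.26) and EC minus mural (-0.33 beside -0.75). Signs were opposite in TEC minus EC (0.23 beside -0.53) and TEC minus mesothelial (0.39 beside -0.95). They were opposite too in EC minus mesothelial (0.13 beside -0.20) and FB minus mural (0.43 beside -0.39). Both medians were above 0 in FB minus mesothelial (0.57 beside 0.18) and mural minus mesothelial (0.18 beside 0.48). Dnajb4 was higher in mural cells than in TECs (118, 175 and 153 against 41.6, 64.5 and 71.5 CPM), whereas Hspe1, a mitochondrial chaperonin, was higher in TECs (535, 431 and 385 against 192, 120 and 142 CPM). Hspb1 was lowest in FBs, at 363, 242 and 257 CPM, and Hsph1 was highest there, at 140, 174 and 499 CPM. What dissociation contributed to any of these levels was not tested.

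Markers of barcode quality and of blood cells were set beside these levels. The summed member level in the top tertile of barcodes by mitochondrial share was 0.576 to 1.12 times that in the bottom tertile, over the 14 sums, and between tertiles by UMI count it was 0.729 to 1.33 times. The 10 hematopoietic markers summed to 815, 494 and 448 CPM in TECs, 115, 32.1 and 57.3 CPM in mural cells and 907, 655 and 392 CPM in empty droplets. Their part in the lower levels of TECs was not tested, while removing barcodes with Ptprc left all 55 called contrasts of members called.

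Genes outside the set with the most similar course over the 14 sums, each centred on its library, were Actr1b (Pearson's r 0.95 with the mean of the members), Csnk1d (0.92), Klf12, Gamt and Vezf1 (0.91 each), Rcan2, Klf9 and Prkar2a (0.90 each), out of 7435 candidates.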

How the data were processed

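Single-cell 3' libraries of CD45-depleted thymus cells were measured in 3 samples. The authors counted UMIs with Cell Ranger (7.0.1 in the header of the called matrices, 7.01 in the submitters' processing notes) on mm10, and deposited whole-number UMI counts per gene and barcode for called and for all barcodes, which were used as they are. The deposited library summaries, with percent and count columns of Cell Ranger, were not used. Barcodes with 1000 genes or fewer and 20% or more mitochondrial counts were removed (138, 149 and 222). Scrublet in scanpy 1.11.5 marked 1, 12 and 5 barcodes at its own threshold, so removal of the top 3.9% (332, 153 and 210 with ties), the multiplet rate in the labels, was an alternative only. Barcodes past more than 1 class gate were dropped.

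UMIs were summed per library and class for the 14 sums with at least 20 barcodes. These were fitted together in edgeR 4.0.16 (R 4.3.3) with class and library as terms, TMM factors, its default filter on low counts, the quasi-likelihood test and Benjamini-Hochberg adjustment over 17595 genes. DESeq2 1.42.0 was an alternative, and the script was tested on data simulated for TEC against FB. It recovered 4.5% of 1.5-fold changes, 14.9% of 2-fold, 81.2% of 4-fold and 84.8% of 8-fold, with 15 false calls. A contrast that was not called may therefore still hold a difference of about 2-fold. Residual spread comes from 3 libraries, so p-values measure how stable a class difference was between them. Libraries were compared as ratios with exact Poisson intervals and no test. Shares of barcodes were taken after thinning to 2000 UMIs, leaving out shallower barcodes. Empty droplets were uncalled barcodes with 147 to 586, 22 to 87 and 26 to 103 UMIs, a 2-fold range either side of the peak of their UMI distribution.

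The members, gene lists and gates were chosen with earlier results of these data known. All 10 members are described; from each further list the 4 genes with the smallest p over all classes are named, except for 1 that is not reported here, and the 8 genes most like the members by Pearson's r. Gene positions are from GENCODE vM21, where genes on the opposite strand overlap Jun, Junb, Jund, Atf3 and Zfp36. Whether reads of such neighbours were kept apart by strand is not given in the sources used here.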

Additional observations from a re-analysis of the deposited data

Results flagged for a closer look

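A class difference was looked at again where it pointed opposite ways in a pair of libraries and each library's exact binomial interval for counting error excluded 0. The values are log2 ratios of plain CPM, and the difference between libraries was not tested, since each group is 1 library and barcodes vary by more than counting error.

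Between the Foxn1Lin female and Foxn1Lin male libraries, in that order, Fos gave -0.42 and 0.47 for TEC over EC, Fosb gave -0.77 and 0.46 for TEC over EC, and Jun gave -0.056 and 0.74 for TEC over EC. Nr4a1 gave -0.76 and 0.17 for TEC over EC. Jund gave 0.34 and -0.57 for EC over FB, and Jund gave 0.12 and -0.98 for EC over mural. Zfp36 gave 0.37 and -0.15 for FB over mural.

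Between the Foxn1Lin male and wild-type libraries, in that order, Junb gave -0.16 and 0.15 for TEC over EC, and Jund gave -0.077 and 0.16 for TEC over EC. Nr4a1 gave 0.17 and -0.24 for TEC over EC. Zfp36 gave -0.29 and 0.27 for EC over FB. Fosb gave 0.12 and -0.85 for FB over mural, and Jun gave 0.21 and -0.27 for FB over mural. Most of these lie between TECs and ECs or between FBs and mural cells.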

How the results depend on the processing

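Of the 100 contrasts of 10 members in 10 pairs of classes, 55 were called, and under the 15 alternatives none of these reversed. Of the 55, 22 were called under every one of the 15 alternatives, among them Nr4a1 in TECs, ECs and FBs against mural cells, Fos, Fosb, Junb, Jund and Egr1 in TECs against mural cells, and Atf3 in FBs against TECs, mural and mesothelial cells. With 1 library left out, the count of members called ran from 1 to 4 in TEC against EC, 6 to 8 in TEC against FB, 7 to 8 in TEC against mural, 4 to 5 in TEC against mesothelial, 1 to 6 in EC against FB, 1 to 8 in EC against mural, 4 in EC against mesothelial, 2 to 5 in FB against mural, 1 to 3 in FB against mesothelial and 1 to 2 in mural against mesothelial, and from 7 to 10 for any difference. A sum left alone in its class, as in mesothelial cells, is then assumed to vary like the others. Without the library block 23 of the 55 calls were lost, and the counts were 7 for any difference, 1 in TEC against EC, 4 in TEC against FB, 6 in TEC against mural, 1 in EC against FB and 4 in EC against mural. Without scaling 3 were called in TEC against EC. In mural against mesothelial, DESeq2 and the fit without a filter on low counts each called 5, and the barcodes above the median UMI count 1. As mean UMIs per barcode, 1, 0 and 0 members were higher in mural cells, FBs and ECs than in TECs in every library. Looser and stricter gates each gave 2 members past 2-fold between the males in FBs, in place of 1. Of 300 shares of barcodes under other depths or gates, 88 moved by more than 1 SD between libraries. Classes were compared within libraries by the library block. No paired analysis was possible between the groups of libraries because each is 1 library. With 3 libraries, 1 to a group, sex, genotype and library cannot be told apart. How much of the level of a gene in a class came from free RNA was not tested.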
